A study of Mus musculus with 24 samples.

Results

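Microglia, the resident macrophages of the brain, were followed here through 43 of their marker genes in the hippocampus of mice that had drunk corticosterone overnight. The markers were listed by gene symbol. Each probe of the array was paired with a gene through its transcript accession, and each gene was read from the brightest of its probes, by mean intensity over all animals. All 43 genes had a probe, out of 23787 genes with a named probe in the series. They were detected by 59 of the 56605 unique probes, with 29 genes on a single probe and 14 on several.

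Hippocampi came from 48 male Swiss-Webster mice, which were 12 weeks old when they were moved to single cages, some weeks before the treatment, with 1 animal per sample and no pooling. Treated animals received corticosterone (100 µg/ml, dissolved with 0.45% hydroxypropyl-β-cyclodextrin) in drinking water throughout the 12 h dark phase, and control animals, which were siblings of the treated ones, received the cyclodextrin vehicle alone. Animals were killed during the first, the fifth or the ninth hour of the light phase that followed, which is the resting period of mice, and these time points are called hours 1, 5 and 9. Every hour had 8 control and 8 corticosterone-treated animals, with 1 animal of each kind hybridised to each of the 24 two-color arrays. The comparison asked how the treatment altered these genes while the hormone was still raised and how long the change lasted.

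Microglia survey the tissue with motile processes that are guided by purine receptors, take up debris and synapses with the help of complement and Fc receptors, and sense danger signals through Toll-like receptors. Their survival depends on the growth factor receptor *Csf1r* and their identity on transcription factors such as *Spi1* (PU.1), *Irf8* and *Sall1*. Glucocorticoids act on these cells through the glucocorticoid receptor and are known for restraining inflammatory gene expression. In RNA from whole hippocampus, fewer microglia and less RNA per microglial cell cannot be told apart.

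Control RNA always carried Cy3 and RNA from treated animals always carried Cy5, so that the treatment and the dye cannot be told apart within an hour, whereas comparisons between hours within a group kept the dye constant. Depending on the array, 57.9 to 64.2% of spots were well above background for Cy3, and 61 to 70.4% for Cy5. No spot was saturated, and no spot of a member was missing on any array. Of the members, 42 had a mean intensity of 50 or more. The exception was *Spi1*, which was not well above background in any animal, so that its ratios are not described. Intensities are normalized and background-corrected values without a unit, and differences are log2 fold changes of corticosterone-treated over control animals with the standard error of the fit. Significance means an adjusted p (separate channel test of limma, Benjamini-Hochberg) under 0.05 over all 56605 probes, and each group below holds 8 animals.

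Array 7 of hour 5, on slide 3, stood apart. Its mean log2 intensities over all probes had a median correlation of 0.988 with those of the other arrays, against 0.993 to 0.995 for the other 23 arrays. Both of its animals lay below the other 7 animals of their group for 5 members, *P2ry12*, *Siglech*, *Tyrobp*, *Tlr4* and *Cyth4*, and above all of them for 21 of 43 members, as did 10.2% and 18.4% of all named genes. This array was left out in an alternative chosen after seeing the data, and the 12 member calls that changed without it are given with their values.

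Promoter sequences are shown for genes on which the results below turn: 3 markers that were lower at several hours, the one marker with a large rise, and a bright marker without a significant change. RefSeq windows on GRCm38.p6, from 250 bases before an annotated start to 50 bases after it, were found for 32 of the 43 members, which had 41 windows in all. On both strands, 3 motifs were searched: GAGGAAGT, the core bound by *Spi1* (PU.1), GGAAGT, the shorter core of the ETS family, which lies within the former, and TGTTCT, the half-site of the glucocorticoid receptor. Capitals mark GGAAGT in *P2ry12* (chr3:59262936-59263235, minus strand), the half-site in *P2ry13* (chr3:59210833-59211132, minus strand, as AGAACA) and *Ly86* (chr13:37345095-37345394, plus strand), and GAGGAAGT in *Ctss* (chr3:95526536-95526835, plus strand, as ACTTCCTC), whose half-sites are left in lower case. The window of *Crybb1* (chr5:112255570-112255869, plus strand), which lies inside the gene (chr5:112254563-112269585) and not at its outermost start, held none of the 3 motifs.
P2ry12: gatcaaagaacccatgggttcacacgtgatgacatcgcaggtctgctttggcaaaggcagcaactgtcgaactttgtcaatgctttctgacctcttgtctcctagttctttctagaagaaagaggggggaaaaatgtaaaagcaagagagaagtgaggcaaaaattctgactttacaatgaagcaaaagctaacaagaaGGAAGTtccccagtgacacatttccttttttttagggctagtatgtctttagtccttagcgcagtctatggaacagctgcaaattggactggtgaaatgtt
P2ry13: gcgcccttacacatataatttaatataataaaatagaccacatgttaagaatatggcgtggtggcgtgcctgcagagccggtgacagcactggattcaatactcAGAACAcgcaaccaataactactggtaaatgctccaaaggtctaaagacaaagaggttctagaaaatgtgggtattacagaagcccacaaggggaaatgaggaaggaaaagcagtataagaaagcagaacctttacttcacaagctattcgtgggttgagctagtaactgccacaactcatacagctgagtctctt
Ly86: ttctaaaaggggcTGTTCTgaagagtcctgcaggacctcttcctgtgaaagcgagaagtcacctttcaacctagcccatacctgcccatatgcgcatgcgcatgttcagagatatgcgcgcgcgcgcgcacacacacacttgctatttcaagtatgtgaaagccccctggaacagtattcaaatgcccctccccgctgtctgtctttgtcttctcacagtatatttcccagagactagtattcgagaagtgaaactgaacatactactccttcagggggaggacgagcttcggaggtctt
Crybb1: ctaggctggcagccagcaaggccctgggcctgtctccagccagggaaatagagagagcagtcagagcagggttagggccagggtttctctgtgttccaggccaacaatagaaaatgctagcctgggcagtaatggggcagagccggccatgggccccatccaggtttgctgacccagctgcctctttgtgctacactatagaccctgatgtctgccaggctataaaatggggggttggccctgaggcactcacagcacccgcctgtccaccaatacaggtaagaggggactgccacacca
Ctss: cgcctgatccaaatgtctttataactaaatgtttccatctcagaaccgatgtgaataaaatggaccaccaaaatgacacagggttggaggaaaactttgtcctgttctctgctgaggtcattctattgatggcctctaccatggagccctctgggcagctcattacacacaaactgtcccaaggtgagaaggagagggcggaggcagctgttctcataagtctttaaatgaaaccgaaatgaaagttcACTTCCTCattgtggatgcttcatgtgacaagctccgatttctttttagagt

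GAGGAAGT was present in 8 of the 41 windows of the members, against 3.20% of all 32851 windows of the table. These windows belonged to *C1qc*, *Cd53*, *Ctss*, *Cyth4*, *Hpgds*, *Inpp5d*, *Pld4* and *Slco2b1*, of which *Hpgds* displayed a significant treatment difference. GGAAGT was present in 19 windows, against 23.8% of all windows, and TGTTCT in 14 windows, against 6233 of all 32851. The genes with TGTTCT comprised markers that fell, such as *P2ry13*, *Ly86*, *Mpeg1*, *Laptm5* and *Ptprc*, and markers without a significant difference, such as *C1qb*, *Cd53* and *Ctss*. These matches describe letters in a window and were not tested.

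Of the 43 members, 21 displayed a significant difference between corticosterone-treated and control animals during at least 1 hour, of which 17 were lower and 4 were higher in treated animals, and 22 did not. Among all named genes, 32.9% were significant at 1 hour or more, 16.7% in the lower and 16.5% in the higher direction. No member changed direction between hours with significance on both sides. Members with lower expression comprised the purine receptors *P2ry12* and *P2ry13*, the Toll-like receptor partners *Ly86* and *Unc93b1*, the phosphatase *Ptprc* (CD45) and the actin-binding protein *Aif1* (Iba1), while *Crybb1* was the member with the largest rise. The 22 members without a significant difference comprised *Csf1r*, *Tmem119*, *Ctss* and the 3 C1q genes.

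During the first hour, 13 members were significantly lower and 2 were higher. Among all 23787 named genes read in the same way, 10.4% were lower and 10.3% were higher, and over all unique probes 17.5% were significant in either direction. The fifth hour gave 12 lower and 4 higher members, against 10.9% and 9.90% of named genes (18.1% of probes). By the ninth hour, 8 members were lower and 2 were higher, against 7.21% and 8.37% (14.0% of probes). From the deposited log2 ratios, 15 members were lower and 6 higher at hour 1, 14 and 6 at hour 5, and 9 and 2 at hour 9, with 23.4, 21.7 and 16.9% of named genes significant in either direction. The test on log ratios gave 15 lower and 4 higher members at hours 1 and 5, and 9 and 2 at hour 9 (named genes, 21.8, 21.8 and 15.9%). In total, 6 members were significant at all 3 hours, 5 at hours 1 and 5, 2 at hours 5 and 9, 1 at hours 1 and 9, 3 at hour 1 alone, 3 at hour 5 alone and 1 at hour 9 alone. In the same order, these patterns were found in 7.51, 5.22, 2.26, 1.66, 6.3, 5.84 and 4.15% of all named genes. The median log2 fold change of all 43 members was -0.064, -0.056 and -0.061 at the 3 hours, against -0.0035, -0.0034 and 0.0061 for all named genes.

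The counts and medians depended on the slides. Without slide 2, 4 members were significant at hour 1 in place of 15, when 9.81% of all named genes were significant in either direction. Without slide 3, 10 were significant at hour 5 in place of 16 (named genes, 8.94%). At hour 9 the count fell from 10 to 0 without slide 1 (4.22%) and to 5 without slide 2 (9.47%). Within slide 2 alone, which held 3 arrays of hour 1, 10 members were significant at that hour (named genes, 3.35%), against 0 and 1 within slides 1 and 3 (0.849% and 1.77%). The median of the members was -0.14 at hour 1 without slide 3, -0.11 at hour 5 without slide 1 and -0.024 at hour 9 without slide 1. Within slides 1, 2 and 3 alone it was -0.12, -0.17 and -0.0064 at hour 1, -0.017, -0.076 and -0.13 at hour 5, and -0.083, -0.0012 and -0.046 at hour 9. All 15, 16 and 10 significant differences had the same sign in the mean of each of the 3 slides, as a choice of differences by the pooled arrays favours. Sizes could differ between slides, with -0.096 within slide 1 for *Cx3cr1* at hour 1, -0.14 without slide 2 for *Hpgds* at hour 1 and -0.13 within slide 2 for *Ptprc* at hour 9, where all arrays gave -0.20, -0.29 and -0.30. Without array 7 of hour 5 the counts were 17, 15 and 10, with 21.9, 17.5 and 16.7% of named genes.

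**Figure D1:**
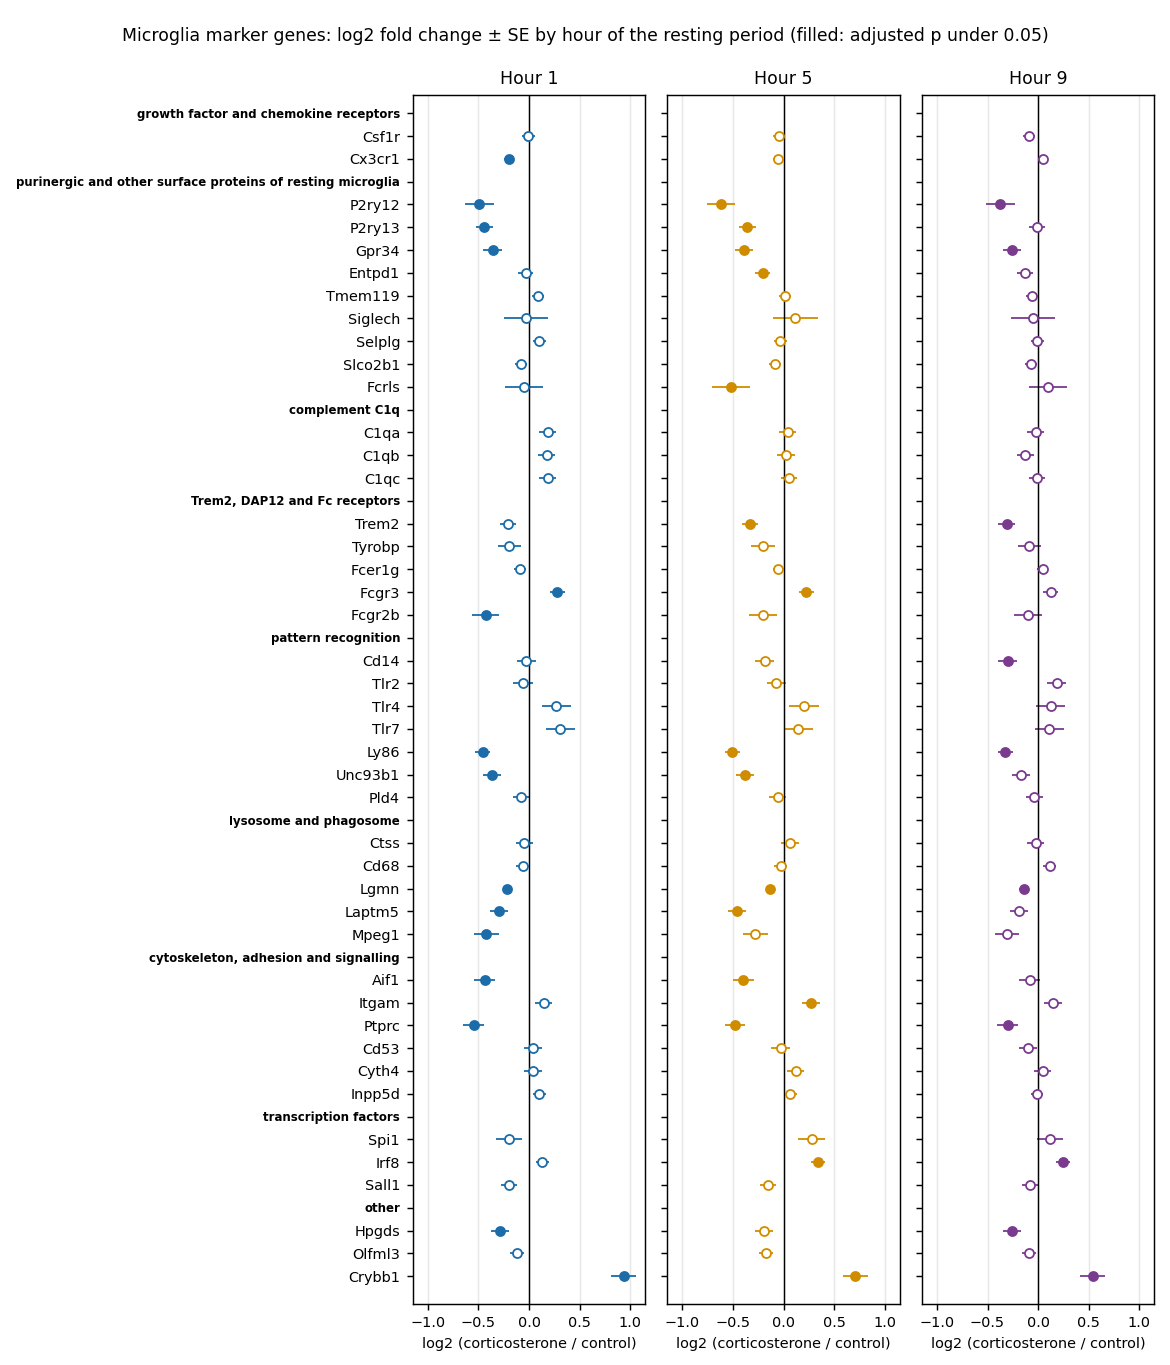
Log2 fold change (corticosterone over control, ± SE, 8 animals per group) of each of the 43 members during hours 1, 5 and 9, grouped by role; filled points have an adjusted p under 0.05. *Ly86*, *Ptprc*, *P2ry12* and *Gpr34* lie to the left of 0 at all 3 hours, *Crybb1* lies to the right at 0.94, 0.71 and 0.54, and *Spi1*, which was not well above background, is drawn for completeness.

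On single arrays, each of which compares 1 treated with 1 control animal, the median log2 ratio of the 43 members ran from -0.20 to 0.070 at hour 1 and was below 0 on 7 of 8 arrays. It ran from -0.18 to 0.075 at hour 5, with 7 of 8 arrays below 0, and from -0.20 to 0.048 at hour 9, with 5 of 8 below 0. The number of members below 0 on an array varied from 17 to 38 of 43, while 43.3 to 56.3% of all named genes lay below 0.

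**Figure D2:**
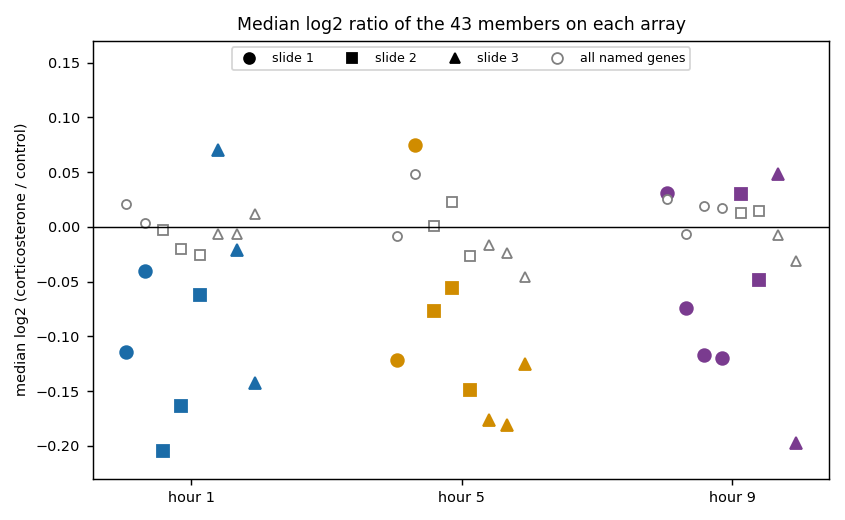
Median log2 ratio (corticosterone over control) of the 43 members (filled) and of all named genes (open, grey) on each of the 24 arrays, by hour, with the slide as the shape of the symbol. The filled points lie below 0 on 7, 7 and 5 of the 8 arrays of hours 1, 5 and 9, and the open points stay near 0.

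Of the receptors for growth factor and chemokine, 1 of 2 was significantly lower at hour 1 and neither at hours 5 and 9 (all named genes, 10.4, 10.9 and 7.21%). *Cx3cr1*, the receptor by which microglia sense neuronal fractalkine, was lower in treated animals at hour 1. Its intensity at hour 1 was 3672 to 4605 (median 3997) in control and 2916 to 3972 (median 3665) in corticosterone-treated animals, a difference of -0.20 ± 0.052 (SE, adjusted p = 0.00273). The groups overlapped, with 4 of 8 treated animals below every control and 7 of 8 arrays showing the lower value in the treated animal. This call was lost under 6 alternatives, with differences from -0.24 to -0.096. At hours 5 and 9 the log2 fold changes were -0.056 (adjusted p = 0.458) and 0.050 (adjusted p = 0.54). *Csf1r*, the receptor of the survival factors *Csf1* and *Il34*, had intensities of 6403 to 7674 (median 6958) in control and 5776 to 8824 (median 6913) in treated animals at hour 1. Its log2 fold changes of -0.0061 (adjusted p = 0.957), -0.044 (adjusted p = 0.643) and -0.091 (adjusted p = 0.304) were not significant, and the groups overlapped at each hour.

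Among the 9 purinergic and other surface proteins of resting microglia, 3 were significantly lower at hour 1, 5 at hour 5 and 2 at hour 9, against 10.4, 10.9 and 7.21% of all named genes, and none was higher. *P2ry12*, the ADP receptor that draws microglial processes towards injury, was lower at all 3 hours. At hour 1 it measured 1253 to 1485 (median 1360.0) in control and 823 to 1081 (median 977) in treated animals, a difference of -0.49 ± 0.14 (SE, adjusted p = 0.00715). All 8 treated animals lay below all 8 controls, which *Crybb1* was the other member to show in either direction (2.33% of named genes), and *P2ry12* alone separated at hour 9 (2.37%), when intensities were 1344 to 1653 (median 1429.6) and 1018 to 1206 (median 1146). The hour 9 difference was -0.37 ± 0.14 (SE, adjusted p = 0.0497), close to the threshold. The call was lost under 8 alternatives, in which the difference ran from -0.45 to -0.35, and without array 7 of hour 5 the adjusted p was 2.2e-05. At hour 5 the intensities were 426 to 1651 (median 1405) in control and 281 to 1057 (median 909) in treated animals, a difference of -0.62 ± 0.14 (SE, adjusted p = 0.000821). Array 7 held the lowest animal of both groups there, at 426 and 281. Without it the differences of hours 1, 5 and 9 were -0.49 ± 0.062 (SE), -0.62 ± 0.066 (SE) and -0.37 ± 0.062 (SE), with smaller errors. The treated animal was lower on all 24 arrays.

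*P2ry13*, a further ADP receptor encoded near *P2ry12* on chromosome 3, was lower at hours 1 and 5. It measured 383 to 546 (median 465) in control and 227 to 420.0 (median 347) in treated animals at hour 1, a difference of -0.44 ± 0.082 (SE, adjusted p = 7.7e-05). At hour 5 the values were 479 to 701 (median 532) and 352 to 543 (median 427), a difference of -0.36 ± 0.082 (SE, adjusted p = 0.000807). The treated animal was the lower one on all 8 arrays of both hours, although the ranges of the groups overlapped. The hour 9 intensities were 450.3 to 573 (median 521) and 435 to 573 (median 527), with a difference of -0.011 (adjusted p = 0.942).

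*Gpr34*, a receptor for lysophosphatidylserine, was lower at the 3 hours. Its intensities at hour 1 were 741 to 956 (median 821) in control and 501 to 835 (median 623) in treated animals. The differences were -0.36 ± 0.091 (SE, adjusted p = 0.00322), -0.39 ± 0.091 (SE, adjusted p = 0.00118) and -0.26 ± 0.091 (SE, adjusted p = 0.0403) at hours 1, 5 and 9, with the treated animal lower on 7, 6 and 7 of 8 arrays and overlapping groups. At hours 1 and 5 the calls were lost under 4 and 3 alternatives that concerned the slides, with differences from -0.43 to -0.10 and from -0.63 to -0.050. The call at hour 9 was lost under 9 alternatives, with differences from -0.30 to -0.21, and a second probe gave -0.053 at that hour. *Entpd1* (CD39), the enzyme that degrades extracellular ATP, was lower at hour 5, with 248 to 374 (median 275) in control and 208 to 321 (median 243) in treated animals and a difference of -0.21 ± 0.077 (SE, adjusted p = 0.0472). This call was lost under 12 alternatives, with differences from -0.36 to -0.018, among them the one without array 7, in which the difference was -0.205 (adjusted p = 0.0605), against -0.207 with all arrays. At hours 1 and 9 *Entpd1* gave -0.034 (adjusted p = 0.82) and -0.13 (adjusted p = 0.253). *Fcrls*, an Fc receptor-like protein of mouse microglia, was lower at hour 5 as well, with 121 to 292 (median 225) in control and 91.6 to 276 (median 152) in treated animals, a difference of -0.52 ± 0.19 (SE, adjusted p = 0.0336) that had the same sign on all 8 arrays. Under 7 alternatives this call was lost, with differences from -0.59 to -0.43. At hours 1 and 9 the *Fcrls* differences were -0.051 (adjusted p = 0.807) and 0.098 (adjusted p = 0.827). The remaining 4 surface proteins were not significant at any hour. *Tmem119*, a marker that separates microglia from blood-derived macrophages, measured 799 to 982 (median 862) in control and 758 to 1049 (median 957) in treated animals at hour 1, and its log2 fold changes were 0.090 (adjusted p = 0.279), 0.012 (adjusted p = 0.913) and -0.061 (adjusted p = 0.517). *Siglech*, *Selplg* and *Slco2b1* had differences from -0.085 to 0.12.

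**Figure D3:**
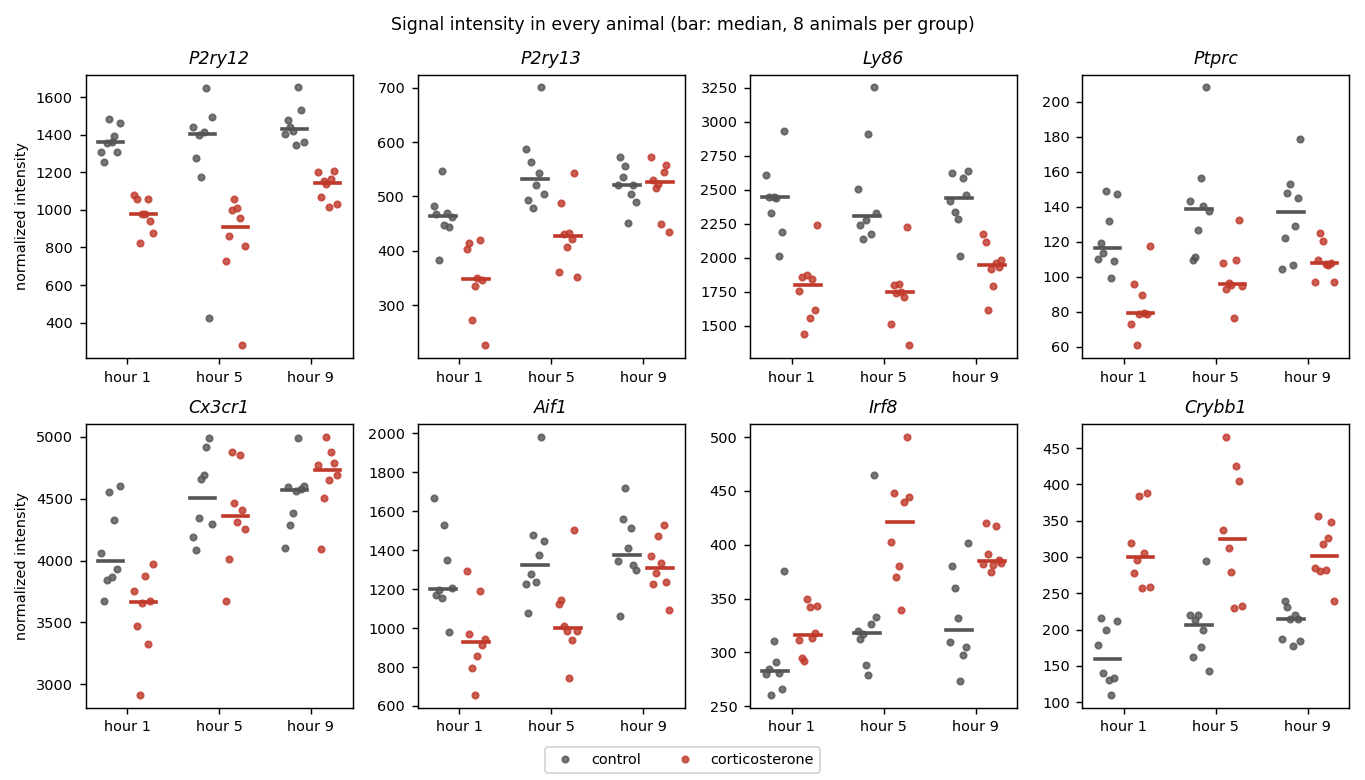
Normalized intensity of 8 members in each animal of the control (grey) and corticosterone-treated (red) groups at hours 1, 5 and 9; bars are medians of 8 animals. *P2ry12* has no overlap between groups at hours 1 and 9 and a single low animal in both groups at hour 5, *P2ry13* and *Aif1* have lower medians in treated animals at hours 1 and 5, with ranges that overlap at each hour, and *Crybb1* is higher in treated animals throughout.

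The 3 subunits of C1q, the protein that starts the classical complement pathway and tags synapses for removal, displayed no significant difference. *C1qa* measured 797 to 1204 (median 915) in control and 949.8 to 1209 (median 1039.9) in treated animals at hour 1. The differences at that hour were 0.19 (adjusted p = 0.0962) for *C1qa*, 0.17 (adjusted p = 0.146) for *C1qb* and 0.18 (adjusted p = 0.0993) for *C1qc*, with the treated animal higher on 6 of 8 arrays for each. They were 0.042, 0.025 and 0.053 at hour 5 and -0.024, -0.13 and -0.012 at hour 9.

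Of the lipid receptor *Trem2*, its adaptor *Tyrobp* (DAP12) and the 3 Fc receptor genes, 1 was lower and 1 higher at both hours 1 and 5, and 1 was lower at hour 9 (all named genes, 10.4, 10.9 and 7.21% lower and 10.3, 9.90 and 8.37% higher). *Trem2* measured 1443 to 2564 (median 1575) in control and 1137 to 1632 (median 1301) in treated animals at hour 5, a difference of -0.33 ± 0.082 (SE, adjusted p = 0.00203), and 1455 to 2044 (median 1692) and 1179 to 1652 (median 1398) at hour 9, a difference of -0.31 ± 0.082 (SE, adjusted p = 0.00524). The treated animal was lower on all 8 arrays of both hours. At hour 1 the difference was -0.21 (adjusted p = 0.0596), and without array 7 of hour 5 it was significant at -0.21 (adjusted p = 0.0326). *Tyrobp* had differences of -0.20 (adjusted p = 0.219), -0.20 (adjusted p = 0.214) and -0.087 (adjusted p = 0.652), lower on 8, 7 and 5 of 8 arrays, of which that of hour 1 was significant without array 7, at -0.20 (adjusted p = 0.0252).

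*Fcgr3*, an activating receptor for IgG, was higher, with 114 to 149 (median 137) in control and 137 to 194 (median 163) in treated animals at hour 1, a difference of 0.28 ± 0.074 (SE, adjusted p = 0.00622). At hour 5 the intensities were 126 to 197 (median 140.3) and 134 to 226 (median 170.0), a difference of 0.23 ± 0.074 (SE, adjusted p = 0.0228) whose call was lost under 7 alternatives (0.21 to 0.25), and at hour 9 the difference was 0.12 (adjusted p = 0.291). The treated animal was the higher one on 8, 7 and 6 of 8 arrays. *Fcgr2b*, the inhibitory IgG receptor, was lower at hour 1, with 36.7 to 65.5 (median 54.0) in control and 24.6 to 58.7 (median 38.1) in treated animals and a difference of -0.43 ± 0.14 (SE, adjusted p = 0.0259). Its signal was dim and well above background in 6 of 8 animals of each of these groups, and the call was lost under 7 alternatives (-0.51 to -0.34). At hours 5 and 9 *Fcgr2b* gave -0.21 (adjusted p = 0.265) and -0.098 (adjusted p = 0.546). The signalling chain *Fcer1g*, shared by activating Fc receptors, gave -0.088 (adjusted p = 0.271), -0.051 (adjusted p = 0.556) and 0.044 (adjusted p = 0.644).

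Of 7 pattern recognition genes, 2 were lower at each hour and none was higher, where 10.4, 10.9 and 7.21% of all named genes were lower and 10.3, 9.90 and 8.37% higher. The Toll-like receptors *Tlr2*, *Tlr4* and *Tlr7* displayed no significant difference, with log2 fold changes from -0.071 to 0.31. *Tlr2* gave -0.057 (adjusted p = 0.742), -0.071 (adjusted p = 0.622) and 0.18 (adjusted p = 0.195), and *Tlr7* was higher in the treated animal on 8, 7 and 7 of 8 arrays, with 0.31 (adjusted p = 0.127) at hour 1. *Ly86* (MD-1), the partner of the receptor homologue CD180, was the member with the smallest adjusted p among those lower at hours 1 and 5. It measured 2009.7 to 2934 (median 2443) in control and 1441 to 2244 (median 1802) in treated animals at hour 1, a difference of -0.46 ± 0.074 (SE, adjusted p = 6.5e-06). At hour 5 the values were 2142 to 3253 (median 2305) and 1359 to 2228 (median 1747), a difference of -0.51 ± 0.074 (SE, adjusted p = 8.9e-07). At hour 9 they were 2012 to 2635 (median 2442) and 1613 to 2175 (median 1947), a difference of -0.32 ± 0.074 (SE, adjusted p = 0.00142). On all 24 arrays the treated animal was lower, and 7, 7 and 6 of 8 treated animals lay below every control of their hour.

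*Unc93b1*, the chaperone that carries Toll-like receptors to endosomes, was lower at hours 1 and 5. Intensities were 331 to 504 (median 375) in control and 235 to 361 (median 299) in treated animals at hour 1, a difference of -0.37 ± 0.089 (SE, adjusted p = 0.00209). The differences at hours 5 and 9 were -0.38 ± 0.089 (SE, adjusted p = 0.00116) and -0.17 (adjusted p = 0.187), with 7, 8 and 6 of 8 arrays lower. *Cd14*, the co-receptor for lipopolysaccharide, was the member that was lower at hour 9 alone. It measured 159.7 to 219 (median 195) in control and 139 to 179 (median 154) in treated animals then, a difference of -0.30 ± 0.094 (SE, adjusted p = 0.0241) with the treated animal lower on all 8 arrays. Earlier differences of *Cd14* were -0.028 (adjusted p = 0.87) and -0.18 (adjusted p = 0.157). Its hour 9 call was lost under 5 alternatives that concerned the slides, with differences from -0.38 to -0.17. A second *Cd14* probe gave -0.19 (adjusted p = 0.204) at hour 9 and 0.10 (adjusted p = 0.55) at hour 1. *Pld4*, an endolysosomal nuclease, had differences from -0.079 to -0.039.

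Of 5 genes of the lysosome and phagosome, 3 were significantly lower at hour 1, 2 at hour 5 and 1 at hour 9 (named genes, 10.4, 10.9 and 7.21%). *Lgmn* (legumain), an asparaginyl protease, showed a small difference at each hour. It measured 7077 to 8389 (median 7685) in control and 6075 to 7094 (median 6557) in treated animals at hour 1. The log2 fold changes were -0.21 ± 0.041 (SE, adjusted p = 5.1e-05), -0.14 ± 0.041 (SE, adjusted p = 0.0076) and -0.14 ± 0.041 (SE, adjusted p = 0.00674) at hours 1, 5 and 9, and the treated animal was lower on all 24 arrays. *Laptm5*, a lysosomal membrane protein, measured 340.3 to 592 (median 400.2) in control and 243 to 364 (median 312) in treated animals at hour 5. Its differences were -0.30 ± 0.089 (SE, adjusted p = 0.0112) at hour 1, -0.46 ± 0.089 (SE, adjusted p = 0.000118) at hour 5 and -0.19 (adjusted p = 0.129) at hour 9, with overlapping groups. *Mpeg1* (perforin-2), a pore-forming protein, measured 599 to 1294 (median 909.6) in control and 541 to 824 (median 591) in treated animals at hour 1, a difference of -0.42 ± 0.12 (SE, adjusted p = 0.00955) that was lower on all 8 arrays. Later *Mpeg1* differences of -0.28 (adjusted p = 0.0897) and -0.31 (adjusted p = 0.0692) missed the threshold. Cathepsin S (*Ctss*) and *Cd68*, a lysosomal marker of phagocytes, displayed no significant difference, with log2 fold changes from -0.064 to 0.11. Those of *Cd68* were -0.064 (adjusted p = 0.488), -0.027 (adjusted p = 0.793) and 0.11 (adjusted p = 0.195).

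Among the genes of cytoskeleton, adhesion and signalling, *Ptprc* (CD45), the phosphatase of all leukocytes, was lower at the 3 hours. It measured 99.2 to 149 (median 116) in control and 61.0 to 118 (median 79.1) in treated animals at hour 1, a difference of -0.55 ± 0.10 (SE, adjusted p = 0.000158). At hours 5 and 9 the differences were -0.48 ± 0.10 (SE, adjusted p = 0.000367) and -0.30 ± 0.10 (SE, adjusted p = 0.0267), and the treated animal was lower on 8, 8 and 7 of 8 arrays. *Aif1* (Iba1), the protein most used to stain microglia, was lower at hours 1 and 5. Its intensities were 981 to 1669 (median 1201) in control and 658 to 1294 (median 929) in treated animals at hour 1, a difference of -0.44 ± 0.10 (SE, adjusted p = 0.00128). At hour 5 they were 1076 to 1980.3 (median 1326) and 744 to 1502 (median 999.6), a difference of -0.40 ± 0.10 (SE, adjusted p = 0.00315). The hour 5 call was lost under 4 alternatives, each of which concerned the slides, with -0.017 within slide 1 and -0.50 within slide 3. By hour 9, with 1061 to 1717 (median 1376) and 1095 to 1528 (median 1309), the difference was -0.084 (adjusted p = 0.625) and the groups overlapped. *Itgam* (CD11b), an integrin chain, was higher at hour 5, with 19064 to 30460.2 (median 22165) in control and 25178 to 34359 (median 28536) in treated animals and a difference of 0.27 ± 0.086 (SE, adjusted p = 0.0174), a call that was lost without array 7, with a difference of 0.24 (adjusted p = 0.0661). It gave 0.14 (adjusted p = 0.236) at hour 1 and 0.15 (adjusted p = 0.246) at hour 9. The target of this very bright probe was not checked, and the second *Itgam* probe gave 0.23 (adjusted p = 0.224) at hour 5. The tetraspanin *Cd53*, the exchange factor *Cyth4* and the phosphatase *Inpp5d* (SHIP1) were not significant, at -0.098 to 0.12, although *Cyth4* was significant at hour 5 without array 7, at 0.14 (adjusted p = 0.0374) in place of 0.12 (adjusted p = 0.323).

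Of the transcription factors, *Irf8*, which microglia need for their development, was higher from hour 5 on. It measured 279 to 465 (median 318) in control and 339 to 500.1 (median 421) in treated animals at hour 5, a difference of 0.34 ± 0.068 (SE, adjusted p = 0.000196), and 273 to 402 (median 321) and 374 to 420.0 (median 385) at hour 9, a difference of 0.25 ± 0.068 (SE, adjusted p = 0.00769). The treated animal was higher on all 8 arrays at hour 5 and on 7 of 8 at hour 9, with overlap between groups. At hour 1 the difference was 0.13 (adjusted p = 0.168). *Sall1*, a factor of microglial identity that is also present in other cells of the brain, gave -0.20 (adjusted p = 0.0675), -0.15 (adjusted p = 0.166) and -0.080 (adjusted p = 0.517), and *Spi1* was not well above background in any animal.

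*Crybb1*, a crystallin expressed by microglia, was the member with the largest difference at each hour. Its intensities were 110.3 to 216 (median 160.1) in control and 257 to 388 (median 300.3) in treated animals at hour 1, a difference of 0.94 ± 0.12 (SE, adjusted p = 1.8e-07). No treated animal overlapped with a control at that hour. At hour 5 no member separated in this way, against 1.33% of named genes. The hour 5 values were 142 to 294 (median 206) and 229.5 to 465 (median 324), a difference of 0.71 ± 0.12 (SE, adjusted p = 2.1e-05). At hour 9, 177 to 239 (median 214) and 239 to 357 (median 301) gave a difference of 0.54 ± 0.12 (SE, adjusted p = 0.00116). On all 24 arrays the treated animal was higher. *Hpgds*, the hematopoietic prostaglandin D synthase, was dim and lower at hour 1, with 52.5 to 79.6 (median 67.3) in control and 45.4 to 58.4 (median 53.5) in treated animals and a difference of -0.29 ± 0.090 (SE, adjusted p = 0.0197), and at hour 9, with 58.2 to 82.3 (median 68.6) and 49.1 to 67.3 (median 57.3) and a difference of -0.26 ± 0.090 (SE, adjusted p = 0.04) whose call was lost under 7 alternatives (-0.30 to -0.16). At hour 5 its difference was -0.19 (adjusted p = 0.132). *Olfml3*, a secreted protein, was not significant, at -0.12 (adjusted p = 0.224), -0.17 (adjusted p = 0.0658) and -0.092 (adjusted p = 0.396).

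Part of the markers rose in treated animals over the 3 time points. In corticosterone-treated animals, 9 of 43 members were significantly higher at hour 9 than at hour 1 and none was lower, against 3.62% higher and 2.60% lower among all named genes. In control animals, none was significant, against 0.837% of named genes, while 9 of 43 members had an unadjusted p under 0.05, as had 12.2% of named genes, and the median was 0.10 (all named genes, 0.0048). The median of the treated animals was 0.088, against 0.012. Without slide 1 or without slide 2, 4 members were significantly higher in treated animals in place of 9 (0.925% and 1.81% of named genes). Without array 7 of hour 5 there were 11 in treated animals, all higher (4.55%), and 1 in control animals (1.38% in either direction). The calls gained were those of *Ptprc*, at 0.39 (adjusted p = 0.0219, from 0.0542), and *Tyrobp*, at 0.23 (adjusted p = 0.0431, from 0.41), in treated animals, and of *Cd68*, at 0.26 (adjusted p = 0.024), in control animals. The processed signals of the scanner software also gave 1 in control animals. In the same comparison of treated animals, 2 of the 30 further microglial genes were higher, *Gpr84* at 0.92 (adjusted p = 2.6e-08) and *Cd33* at 0.31 (adjusted p = 0.0415), and 2 were lower, *Mertk* at -0.72 (adjusted p = 0.00468) and *Havcr2* at -0.36 (adjusted p = 0.0424). Of 7 endothelial genes, 3 were higher, *Cldn5* at 0.27 (adjusted p = 0.0265), *Tie1* at 0.61 (adjusted p = 2.7e-06) and *Kdr* at 0.43 (adjusted p = 0.00126), with a list median of 0.27. In control animals *Tie1* rose as well, by 0.44 (adjusted p = 0.00323), *Cldn5* fell, at -0.34 (adjusted p = 0.0202), and *Kdr* gave -0.14 (adjusted p = 0.653). The genes of both lists were named here after their values were seen. The part of endothelial cells in the result was not tested.

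*P2ry13* had the largest rise among the members, from 227 to 420.0 (median 347) at hour 1 to 435 to 573 (median 527) at hour 9 in treated animals, a change of 0.60 ± 0.095 (SE, adjusted p = 1.3e-05), against 0.17 (adjusted p = 0.508) in control animals. *Cx3cr1* went from 2916 to 3972 (median 3665) to 4096 to 4998 (median 4733), a change of 0.39 ± 0.060 (SE, adjusted p = 5.8e-06) against 0.14 (adjusted p = 0.349) in controls. *Cd68* went from 698 to 863 (median 773) to 961 to 1194 (median 1056), 0.43 ± 0.073 (SE, adjusted p = 2.7e-05) against 0.26 (adjusted p = 0.0727). In these 3 genes every treated animal of hour 9 lay above every treated animal of hour 1, and the same held for *Fcer1g*, *Lgmn* and *Irf8*, 6 of 43 members in all, against 0.913% of named genes. *Fcer1g* measured 835 to 993 (median 951) at hour 1 and 1034 to 1176 (median 1086) at hour 9. The changes were 0.23 ± 0.067 (SE, adjusted p = 0.0219) for *Fcer1g*, 0.16 ± 0.048 (SE, adjusted p = 0.0221) for *Lgmn* and 0.29 ± 0.080 (SE, adjusted p = 0.0148) for *Irf8*. In this order, the calls were lost under 6, 6 and 5 alternatives, with changes of 0.12 to 0.29, 0.12 to 0.22 and 0.24 to 0.37. *Unc93b1*, *Aif1* and the dim *Tlr2* changed by 0.49 ± 0.10 (SE, adjusted p = 0.0015), 0.49 ± 0.12 (SE, adjusted p = 0.00597) and 0.45 ± 0.11 (SE, adjusted p = 0.00795), with 7, 4 and 6 of 8 animals of hour 9 above all animals of hour 1. For *Tlr2* the treated animals measured 39.2 to 63.4 at hour 1 and 50.6 to 81.9 (median 70.1) at hour 9. *Cx3cr1* and *Irf8* had already risen by hour 5 in treated animals, by 0.28 (adjusted p = 0.00503) and 0.37 (adjusted p = 0.00637), the 2 members significant in this comparison (named genes, 0.858%). These 2 calls were lost under 6 and 5 alternatives, with changes from 0.087 to 0.40 and from 0.15 to 0.505. No member was significant between hours 5 and 9 in treated animals (1.11% of named genes), with an unadjusted p under 0.05 in 7 (12.2% of named genes). Without array 7, 4 members were significantly higher in treated animals at hour 9 than at hour 5, against 0.71% of named genes. The change of *P2ry12* was 0.30 (adjusted p = 0.0209) then, against 0.51 (adjusted p = 0.143) with all arrays. *Unc93b1*, *Cd68* and *Aif1* changed by 0.41 (adjusted p = 0.0168), 0.28 (adjusted p = 0.0172) and 0.42 (adjusted p = 0.0456) without the array, against 0.36, 0.24 and 0.34 with it.

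**Figure D4:**
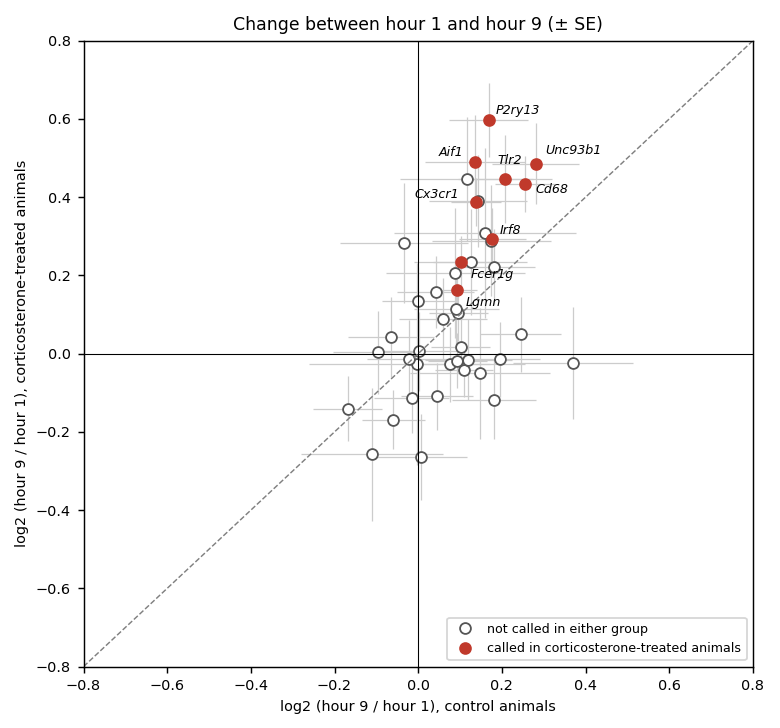
Log2 change from hour 1 to hour 9 of the 43 members in control animals (x axis) and in corticosterone-treated animals (y axis), ± SE, with the dashed line marking equal change. The 9 named genes, which were significant in treated animals, lie above the line, as a choice by their y value favours, with *P2ry13* at 0.60 on the y axis and 0.17 on the x axis. Of the 9, only *P2ry13* had a significant difference between the 2 changes.

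The difference itself, the change of the corticosterone effect from hour 1 to hour 9, was significant for *P2ry13* alone, at 0.43 ± 0.12 (SE, adjusted p = 0.0486), against 1.45% of named genes, and 7 of 43 members had an unadjusted p under 0.05, against 9.16%. The call was lost under 10 alternatives, those without each of the 3 slides among them, with values from 0.19 to 0.57. The other 6 were not significant and went both ways, with 0.25 for *Cx3cr1*, 0.36 for *Aif1* and 0.18 for *Cd68*, and -0.39 for *Crybb1*, -0.30 for *C1qb* and -0.27 for *Cd14*. From hour 1 to hour 5 and from hour 5 to hour 9 the effect changed significantly for no member, against 0.0631% and 0.156% of named genes, with 3 and 4 members at an unadjusted p under 0.05 (4.40% and 6.19% of named genes). Nor was a member significant between hours 1 and 5 or hours 5 and 9 in control animals (0.00841% and 0.0673% of named genes), where 7 and 1 members had an unadjusted p under 0.05 (7.92% and 7.24% of named genes).

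The dimmer probes of the 14 genes with several probes numbered 16. Where the brightest probe was significant at an hour, the dimmer ones had the same sign in 11 of 12 cases, 3 of them significant, and the exception was *Entpd1* at hour 5, with -0.21 on the brightest and 0.15 on the dimmer probe. The dimmer probes named here were chosen after their values were seen. The second *Gpr34* probe was not significant at any hour, and the second *Cx3cr1* probe gave -0.20 (adjusted p = 0.143) at hour 1. A second *Ptprc* probe, well above background in 2 of 48 channels, gave -0.47 (adjusted p = 0.00474) at hour 1, -0.40 (adjusted p = 0.00193) at hour 5 and -0.061 (adjusted p = 0.667) at hour 9, where the brightest gave -0.30. The second *Mpeg1* probe, well above background in 15 of 48 channels, gave -0.025 (adjusted p = 0.848) at hour 1, against -0.42 on the brightest. The second *Cx3cr1* probe rose by 0.55 (adjusted p = 0.000852) between hours 1 and 9 in treated animals. Dimmer probes could differ from the brightest, for *Tlr7* and *Cyth4* under the same transcript accession. A second *Tlr7* probe was higher at hour 1, at 0.37 (adjusted p = 0.00728), with -0.24 at hour 9, so that the effect changed by -0.61 (adjusted p = 0.0159). In treated animals this probe was lower at hour 9 than at hour 1, at -0.62 (adjusted p = 0.00013), where no member was significantly lower on its brightest probe. The second *Siglech* probe was lower at hours 5 and 9, at -0.31 (adjusted p = 0.0345) and -0.35 (adjusted p = 0.0145), where the brightest gave 0.12 and -0.052. A second *Cyth4* probe was higher at hour 5, at 0.25 (adjusted p = 0.0187). Counting a member as significant when any of its probes was gave 16, 19 and 12 members at hours 1, 5 and 9, where the same rule gave 25.6%, 26.2% and 20.1% of named genes. The members added were *Tlr7* at hour 1, *Siglech*, *Cyth4* and *Tlr4* at hour 5, and *Siglech* and *Tlr7* at hour 9. The added *Tlr4* probe was well above background in 0 of 48 channels, and the *Tlr7* probe added at hour 9, the dimmest of its probes, at 0.58 (adjusted p = 0.00605), in 1 of 48.

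Of 30 further microglial genes, there were 5 higher and 4 lower at hour 1, 4 and 3 at hour 5, and 4 and 2 at hour 9 (medians 0.0032, 0.012 and -0.050), where the shares of all named genes were 10.3 and 10.4%, 9.90 and 10.9%, and 8.37 and 7.21%. *Hcls1*, a hematopoietic adaptor protein, was lower at the 3 hours, with log2 fold changes of -0.25 (adjusted p = 0.00137), -0.32 (adjusted p = 6.0e-05) and -0.21 (adjusted p = 0.00974), as was the ATP-gated channel *P2rx4*, with -0.21 (adjusted p = 0.000327), -0.27 (adjusted p = 6.6e-06) and -0.12 (adjusted p = 0.0395). *Mertk*, a receptor for apoptotic cells that astrocytes also express, was higher at hours 1 and 5, at 0.82 (adjusted p = 5.4e-05) and 0.57 (adjusted p = 0.00496), and gave -0.065 at hour 9. *Gpr84*, a receptor for medium-chain fatty acids induced by inflammation, gave -0.19 (adjusted p = 0.183) at hour 1 and was higher later, at 0.32 (adjusted p = 0.0116) and 0.51 (adjusted p = 0.000134). Its effect changed by 0.70 (adjusted p = 0.0014) between hours 1 and 9, and that of *Mertk* by -0.88 (adjusted p = 0.0148).

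Among 19 genes of disease-associated microglia, many of which other brain cells express too, there were 1 higher and 5 lower at hour 1, 0 and 5 at hour 5, and 1 and 6 at hour 9 (medians -0.066, -0.10 and 0.010). Of all named genes, 10.3, 9.90 and 8.37% were higher and 10.4, 10.9 and 7.21% lower at the 3 hours. The tetraspanins *Cd63* and *Cd9* were lower at the 3 hours, with -0.34 (adjusted p = 7.5e-08) and -0.28 (adjusted p = 0.00064) at hour 1 and -0.18 (adjusted p = 0.00276) and -0.29 (adjusted p = 0.000601) at hour 9. The receptor tyrosine kinase *Axl* gave -0.22 (adjusted p = 0.000645) and the chemokine *Ccl6* -0.75 (adjusted p = 4.1e-05) at hour 5. Of 13 ligands and receptors that keep microglia alive or restrain them, there were 1 higher and 3 lower at hour 1, 1 and 4 at hour 5, and 2 and 0 at hour 9 (medians -0.031, 0.010 and -0.019). *Csf1* and *Il34*, the ligands of *Csf1r*, were lower at hour 1, with -0.17 (adjusted p = 0.00261) and -0.16 (adjusted p = 0.0055), as was *Tgfb2*, with -0.22 (adjusted p = 0.00144). *Smad3*, which relays TGF-β signals, was higher at the 3 hours, with 0.20 (adjusted p = 0.000549) at hour 9.

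Of 19 cytokines, chemokines and inflammatory enzymes, 13 had a mean intensity under 50, and there were 1 higher and 3 lower at hour 1, 2 and 1 at hour 5, and 0 and 1 at hour 9 (medians 0.0016, -0.017 and 0.056). For this list and those that follow, 10.3, 9.90 and 8.37% of named genes were higher and 10.4, 10.9 and 7.21% lower. The chemokine *Ccl12* was lower at hours 1 and 5, at -0.96 (adjusted p = 0.000827) and -0.65 (adjusted p = 0.00687), and rose by 1.33 (adjusted p = 6.3e-05) from hour 1 to hour 9 in treated animals. *Cxcl10*, an interferon-induced chemokine, gave -1.06 (adjusted p = 0.00683) at hour 1, and the cytokine subunit *Il12b* was higher at hour 5, at 0.54 (adjusted p = 0.000417). Of 23 genes of Toll-like receptor and inflammasome signalling, there were 1 higher and 3 lower at hour 1, 1 and 2 at hour 5, and 0 and 2 at hour 9 (medians -0.022, -0.023 and -0.011), with *Tlr1* at -0.61 (adjusted p = 0.000863) and the adaptor *Ticam1* (TRIF) at 0.31 (adjusted p = 0.000503) at hour 1. Of 15 complement genes other than C1q, 2 were higher at each hour and none was lower (medians -0.010, 0.057 and -0.018). These were *C2*, with 1.29 (adjusted p = 7.0e-07), 0.90 (adjusted p = 0.000329) and 0.60 (adjusted p = 0.0366), and *Cfb*, with 0.90 (adjusted p = 0.000951), 0.72 (adjusted p = 0.00172) and 0.53 (adjusted p = 0.0424), the proteases that form the *C3* convertases.

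Genes known to respond to glucocorticoids were read for the time course of the hormone. Of 12 such genes, there were 7 higher and 2 lower at hour 1, 4 and 2 at hour 5, and 1 and 5 at hour 9 (medians 0.26, 0.049 and -0.18). Among all named genes, 10.3, 9.90 and 8.37% were higher and 10.4, 10.9 and 7.21% lower at these hours. *Sult1a1*, a sulfotransferase, was higher at the 3 hours, with 2.09 (adjusted p = 6.0e-21) at hour 1 and 1.68 (adjusted p = 1.9e-16) at hour 9. *Sgk1*, a serum- and glucocorticoid-induced kinase, gave 0.71 (adjusted p = 1.2e-10) and -0.12 (adjusted p = 0.26) at these hours, and *Nfkbia*, the inhibitor of NF-κB, 0.76 (adjusted p = 2.0e-10) and -0.27 (adjusted p = 0.0124). The receptor gene *Nr3c1* itself was lower at the 3 hours, with -0.54 (adjusted p = 2.3e-10), -0.55 (adjusted p = 2.7e-10) and -0.18 (adjusted p = 0.0173).

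Markers of other cells were read beside these results. For each list, the shares of all named genes were 10.3, 9.90 and 8.37% higher and 10.4, 10.9 and 7.21% lower at hours 1, 5 and 9. Of 8 genes of border-associated macrophages, which share many markers with microglia, there were 1 higher and 2 lower at hour 1, 0 and 1 at hour 5, and 0 and 0 at hour 9 (medians 0.025, -0.079 and -0.14). *Pf4* and *Ms4a7* were lower at hour 1, with -0.51 (adjusted p = 0.00315) and -0.52 (adjusted p = 0.00417), as the majority of the significant members were, and *Lyve1* was higher, with 0.50 (adjusted p = 0.0173), while the mannose receptor *Mrc1* gave 0.0033 (adjusted p = 0.965) at hour 1, -0.33 (adjusted p = 0.0857) at hour 5 and -0.28 (adjusted p = 0.171) at hour 9. The summed intensity of the list ran from 674 to 994 in control and 632 to 1071 in treated animals at hour 1, so that the groups overlapped. The part of these macrophages in the result was not tested. Of 10 genes of blood leukocytes, there were 1 higher and 2 lower at hour 1, 0 and 1 at hour 5, and 0 and 1 at hour 9 (medians -0.18, -0.080 and -0.060), 7 had a mean intensity under 50, and *Ccr2* and *Retnlg* were not well above background in any animal. Their summed intensity at hour 1 was 5168 to 6930.1 in control and 5755 to 8055 in treated animals. Most of it was *Ly6c2*, which endothelium also expresses, at 0.30 (adjusted p = 0.00102). *S100a9*, a calcium-binding protein of neutrophils and monocytes, was lower at hour 1, with -0.56 (adjusted p = 0.0144), and the other lower gene was *Retnlg*, without a signal well above background. The part of blood cells in the result was not tested.

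Endothelial genes (7 measured) gave 1 higher and 3 lower at hour 1, 1 and 2 at hour 5, and 2 and 1 at hour 9 (medians -0.20, -0.10 and 0.090), with the growth factor receptor *Flt1* at -0.61 (adjusted p = 1.5e-08) at hour 1 and the junction protein *Cldn5* at -0.36 (adjusted p = 5.4e-05) at hour 1 and 0.24 (adjusted p = 0.0081) at hour 9. Of 6 genes of mural cells, 1, *Rgs5*, was lower at each hour, with -0.27 (adjusted p = 0.00769) at hour 5 (medians -0.0059, -0.013 and 0.077). Astrocyte genes (7 measured) gave 1 higher and 1 lower at hour 1, 1 and 2 at hour 5, and 1 and 2 at hour 9 (medians 0.034, -0.077 and -0.12), with the water channel *Aqp4* at -0.76 (adjusted p = 1.2e-08) and the folate enzyme *Aldh1l1* at 0.57 (adjusted p = 9.1e-14) at hour 1. Oligodendrocyte genes (8 measured) gave 2 higher and 2 lower at hour 1, 3 and 2 at hour 5, and 2 and 2 at hour 9 (medians 0.051, 0.15 and 0.10), and neuronal genes (8 measured) 0 higher and 0 lower at hour 1, 3 and 0 at hour 5, and 2 and 0 at hour 9 (medians 0.026, 0.14 and 0.088). None of the 4 erythrocyte genes differed significantly (medians 0.16, 0.30 and -0.019). Beside these lists, 10.3, 9.90 and 8.37% of all named genes were higher and 10.4, 10.9 and 7.21% lower at hours 1, 5 and 9.

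**Figure D5:**
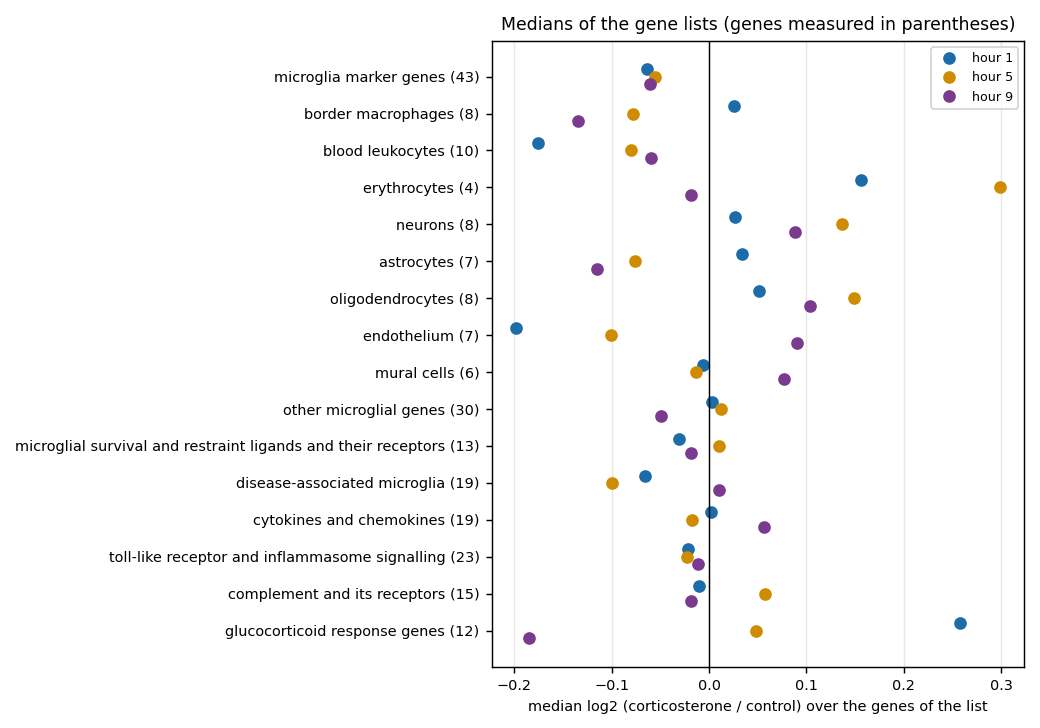
Median log2 fold change (corticosterone over control) over the measured genes of the microglia markers and of 15 other gene lists at hours 1, 5 and 9. The microglial markers lie at -0.064, -0.056 and -0.061, and the glucocorticoid response genes go from 0.26 at hour 1 to -0.18 at hour 9.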

How the data were processed

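The authors scanned the 24 two-color arrays and deposited the scanner output of Agilent Feature Extraction 10.7.3.1, whose intensities of spot and local background are neither normalized nor corrected, with flags (a score of 0 or 1 set by the software) for spots well above background, saturated or outlying. The authors also deposited a table of normalized log2 ratios per array, which served as an alternative. Its median difference from ratios computed here with an offset of 50 and loess was 0.00121.

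Following the methods of the study, median spot intensities were corrected with normexp, normalized by loess within arrays (3671 control spots at weight 0) and by quantile between arrays, and separated into channels, in limma 3.58.1 under R 4.3.3. Outlier spots (255 to 506 per array) were left out. Fold changes, standard errors and intensities came from data without offset, p-values from data with an offset of 50. All 24 arrays entered 1 separate channel fit with 6 groups of 8 animals and an intraspot correlation of 0.279, which takes account of the 2 animals on an array. Benjamini-Hochberg adjustment covered 56605 probes, of which 34566 were named through RefSeq. The number of arrays limits the precision. The procedure was tested on simulated data.

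The members and the gene lists were chosen with earlier results of these data known. Differences with adjusted p at the 3 hours, and intensities for 1 hour or more, are given for members significant in any of 12 comparisons, and for Cx3cr1, P2ry12, Tmem119, Csf1r, Aif1 and Trem2. Outside this rule, and chosen after their values were seen, intensities of C1qa and fold changes of C1qa, C1qb, C1qc, Tyrobp, Tlr7, Cyth4, Sall1 and Olfml3 are given. The remaining members are given by range and count, and up to 4 genes of each other list by smallest adjusted p. Alternatives altered the background correction, offset, normalization, signals, outlier spots, filters, test, variances and slides.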

Additional observations from a re-analysis of the deposited data

Results flagged for a closer look

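In 156 groups of 8 animals (26 members, 6 groups each), 14 held an animal far from the others of its group, and chance alone gives about 1 in 20. Of these groups, 12 belonged to hour 5, and in each of them the animal lay on array 7, so that the groups are not independent. The highest control animal of that hour stood apart for *Csf1r* (intensity 9304), *Trem2* (2564), *Fcer1g* (1328), *Fcgr3* (197), *Cd68* (1197), *Aif1* (1980.3) and *Irf8* (465). Among treated animals of hour 5, the highest stood apart for *Csf1r* (8951), *Fcrls* (276) and *Hpgds* (73.6). The lowest animal of hour 5 stood apart for *P2ry12*, at 426 in control and 281 in treated animals. At hour 1, the highest animals stood apart for *Entpd1* (397, treated) and *Irf8* (375, control).

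The change of the corticosterone effect between hours 1 and 9 was significant for *P2ry13*, at 0.43 on the log2 scale (adjusted p = 0.0486 in limma).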

How the results depend on the processing

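No significant difference of a member reversed under any alternative. Of 53 significant member and comparison pairs, 40 stayed significant under every alternative outside those that concerned the slides, and 0 of the 53 did so when the slide alternatives, each slide alone included, were counted too. Without slide 2, 4 members were significant at hour 1 and 5 at hour 9 (named genes, 9.81 and 9.47%). Without slide 3 there were 10 at hour 5 (8.94%), and without slide 1 there were 0 at hour 9 (4.22%). Within slides 1, 2 and 3 alone the counts were 0, 10 and 1 at hour 1, 5, 1 and 2 at hour 5, and 2, 0 and 0 at hour 9, with 2 to 4 arrays per hour. Of all named genes, 0.849, 3.35 and 1.77% were significant within these slides at hour 1. The shares were 3.39, 0.925 and 3.58% at hour 5, and 3.31, 0.0378 and 0.0126% at hour 9. For treated animals between hours 1 and 9 the count was 4 without slide 1, 4 without slide 2, and 2, 1 and 0 within slides 1, 2 and 3. In the same order, 2.18, 3.41, 0.647, 0.185 and 0.307% of named genes were significant in either direction. The change of effect was significant for 0 members with an offset of 0 for p-values, with Aquantile, with an intensity trend, and without or within each slide, and for 2 members under each of both filters on dim probes and when any probe of a member counted. For control animals between hours 1 and 9 the count was 1 with the processed signals and 1 without array 7 of hour 5, an alternative chosen after seeing the data. The cause was not tested. The test on log ratios, which pairs the 2 animals of each array, gave 19, 19 and 11 members at the 3 hours. Arrays of different hours share no pairing, as their numbers follow accession order. Dye and treatment cannot be told apart within an hour.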
